A study of Homo sapiens with 12 samples.

Results

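The question here is how the answer to serum of HCT116 cells with an siRNA against the prefoldin subunit PFDN5 differed from the answer of cells with a control siRNA. HCT116 is a line grown from a human colon carcinoma. Every group received an siRNA by lipid transfection (Oligofectamine), spent 24 h with it and 48 h without serum, and was harvested either just before serum was added or 90 min after it. Of the 12 RNA-seq libraries of the study, the 8 that enter are siControl before serum, siControl after serum, siPFDN5 before serum and siPFDN5 after serum, with 2 libraries each. The other 4 libraries carry an siRNA against PFDN2 and are used to choose a list of serum-induced genes and in an alternative fit of all 12 libraries. The labels name 1 cell line and 1 siRNA per target, and they do not say that the 2 libraries of a group came from separate cultures, so p-values measure only the spread between these libraries.

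For each gene 3 quantities on the log2 scale are used. The start difference is siPFDN5 minus siControl before serum, the end difference is the same subtraction after serum, and the response difference is the end difference minus the start difference. A larger response difference can thus arise from a lower start, a higher end or both. The start is said to carry a response difference where the end difference is at most 1/3 of it, the end where it is at least 2/3, and both levels in between. A gene is called where the edgeR quasi-likelihood test across all tested genes gave a Benjamini-Hochberg adjusted p under 0.05. Levels are in CPM, the counts of a gene over its whole body scaled to the size of the library.

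Prefoldin is a jellyfish-shaped cochaperone of several different subunits that holds newly made actin and tubulin and hands them to the chaperonin TRiC (also called CCT). Its subunit PFDN5, also known as MM-1, has in addition been described as a partner of the transcription factor MYC. Serum given to starved cells activates ERK signalling within minutes, and the first genes to answer, the immediate-early genes such as FOS, EGR1 and NR4A1, are transcribed from poised promoters without new protein synthesis.

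The 2 siRNA sequences set the groups apart, and the sequence against PFDN5 shows which of its mRNAs can pair with it. Both are written 5′ to 3′ in the sense orientation. Capitals in the PFDN5 sequence mark the bases that lie in the downstream one of 2 exons.
siControl: cguacgcggaauacuucga
siPFDN5: agagaagACAGCUGAGGAU
The control sequence of 19 bases had a perfect match in 0 genes of the annotation. The PFDN5 sequence matched transcripts of PFDN5 alone, 11 of the 20 annotated and 4 of the 6 coding ones. The match crosses an exon junction on chromosome 12 (GRCh38), with 7 bases at 53297918 to 53297924 and 12 bases at 53298045 to 53298056 on the plus strand. In the transcript ENST00000334478.8 these are exons 4 and 5, and all 19 bases lie in the coding sequence.

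PFDN5 itself (ENSG00000123349, chromosome 12, 53295291 to 53299450) was lower before serum and not after it. With siControl its level was 76.8 and 68.8 CPM before serum and 68.1 and 73.9 CPM after it. With siPFDN5 it was 41.0 and 44.2 CPM before serum, and the pair labelled so after serum had 67.2 and 68.4 CPM. Both siPFDN5 libraries before serum lay below all others, whereas the libraries labelled siPFDN5 after serum lay next to the siControl range. The start difference was -0.77 (adjusted p = 0.00503) and the end difference -0.07 (adjusted p = 0.607). The response difference of 0.71 (SE 0.12, adjusted p = 0.0224) was thus carried by the start, and exon counts gave 0.55 (adjusted p = 0.00943). The expression of the target therefore does not bear out the label of the 2 libraries after serum, which are called "labelled siPFDN5" throughout, and every direction drawn from an end difference rests on that label. PFDN5 shares gene-body positions with 1 other gene, and without strand in the gene-body counts their reads cannot be told apart. Estimated counts per transcript, summed per gene, gave a start difference of -0.73 (adjusted p = 0.000746) and an end difference of -0.13 (adjusted p = 0.211) by edgeR. Their response difference was 0.60 (adjusted p = 0.00948). The call on PFDN5 was lost without any 1 of siControl before serum replicate 1 (adjusted p = 0.103), siPFDN5 before serum replicate 1 (0.106) or 2 (0.0842), and labelled siPFDN5 after serum replicate 1 (0.0932) or 2 (0.0689), and in the fit with all 12 libraries (0.0987).

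PFDN2, another prefoldin subunit and not a target of this siRNA, was higher at both times. Its level was 11.4 and 11.2 CPM in siControl before serum against 21.8 and 21.1 CPM in siPFDN5 before serum. After serum it was 19.6 and 16.3 CPM in siControl and 22.98 and 28.6 CPM in the pair labelled siPFDN5 after serum. It was higher at the start by 0.92 (adjusted p = 0.00899) and at the end by 0.53 (adjusted p = 0.0141), and its response difference of -0.39 was not called (adjusted p = 0.123).

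**Figure D1:**
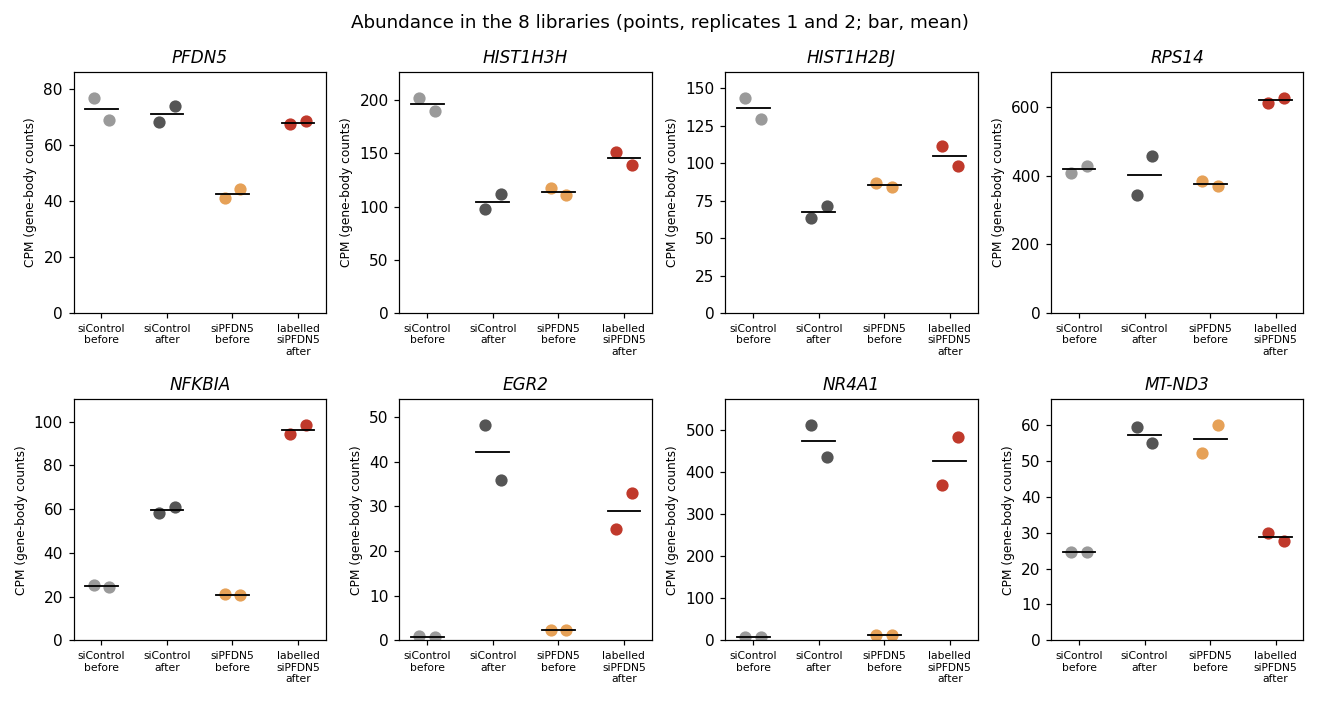
Abundance of 8 genes in CPM over the gene body (vertical axes, linear from 0) in the 4 groups (horizontal axes), with 1 point per library and a bar at the mean of the 2 replicates. PFDN5 is low in siPFDN5 before serum alone (41.0 and 44.2 CPM), while HIST1H3H is higher in siControl before serum (202 and 189.5 CPM) than in the other 3 groups and NFKBIA is highest in the libraries labelled siPFDN5 after serum (94.2 and 98.5 CPM).

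Across the transcriptome the response difference was called for 4036 of 27015 genes, or 14.9%, with 2361 larger (8.74%) and 1675 smaller (6.2%). At an unadjusted p under 0.05 the number was 10061. The serum response itself was called for 2295 genes in siControl (8.5%) and 9278 in the libraries labelled siPFDN5 (34.3%). The 2 replicates of siControl after serum differed most, with an SD of their log2 difference over 12110 genes of 0.304, against 0.195, 0.132 and 0.149 in siControl before, siPFDN5 before and labelled siPFDN5 after serum. Library totals over gene bodies ran from 59784425 to 136504590. The number of calls rested on single libraries. It was 3 without siControl before serum replicate 1, 744 without replicate 2 of that group, 12107 without siControl after serum replicate 2, 1 without either siPFDN5 library before serum, and 15 and 93 without labelled siPFDN5 after serum replicates 1 and 2. Without siControl after serum replicate 1 it was 4449. With the 4 siPFDN2 libraries in the same fit, whose spread then entered the estimate, 0 genes were called by edgeR at the adjusted threshold, and 5847 had an unadjusted p under 0.05.

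The end level carried more called differences than the start level did, with a share near that among all genes tested. Of the 4036 called genes, 1911 (47.3%) were carried by the end, 1665 (41.3%) by both levels and 460 (11.4%) by the start. Among all 27015 genes these shares were 45.2%, 24.7% and 30.2%. The classes rest on the estimates alone. In 1082 of the 4036 called genes neither the start nor the end difference was itself called. This held for 911 of the 1665 carried by both levels, where both were called in 63, and for 166 of the 460 carried by the start. The larger differences were carried by the end in 1246 genes, by both in 873 and by the start in 242. The smaller ones were carried by the end in 665 genes, by both in 792 and by the start in 218. Tested on its own, the start difference was called in 923 genes of 27015 (3.42%), with 417 higher (1.54%) and 506 lower (1.87%). The end difference was called in 5560 (20.6%), with 3239 higher (12%) and 2321 lower (8.59%). The split depended on the scaling, and by library size alone it was 172 higher and 927 lower at the start and 1119 higher and 3178 lower at the end. By the sign of the estimates, 1797 of the 2361 genes with a larger difference went down in siControl and up in the libraries labelled siPFDN5, 542 went up in both and 22 went down in both. Of the 1675 with a smaller difference, 1352 went up in siControl and down in the libraries labelled siPFDN5, 95 went up in both and 228 went down in both. In 68 called genes both differences were called and had opposite signs. Of these, 51 turned from lower to higher and 17 from higher to lower.

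**Figure D2:**
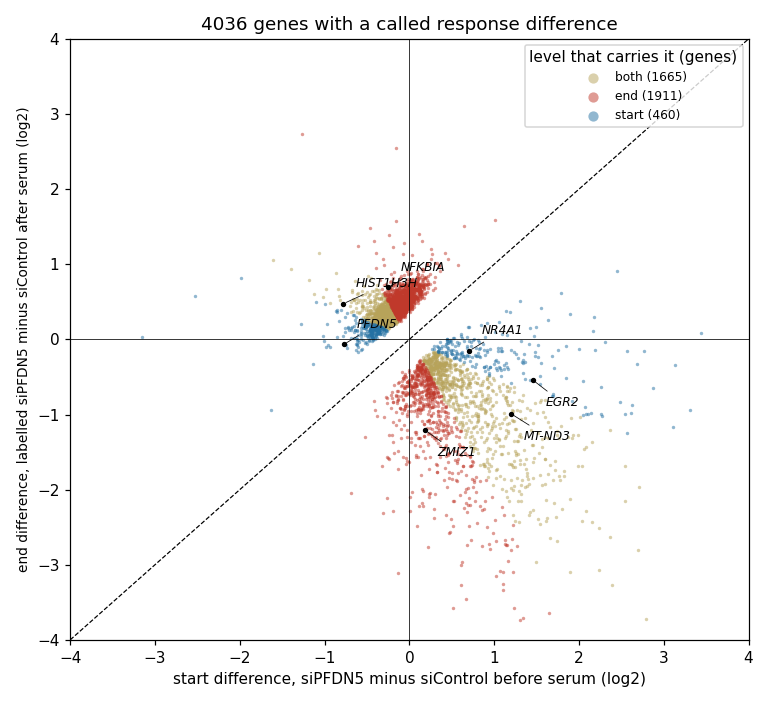
Start difference (horizontal axis) against end difference (vertical axis), both siPFDN5 minus siControl in log2 units, for the 4036 called genes, coloured by the level that carries the response difference. The dashed line marks equal differences, and 7 called genes lie outside the axes of ±4. PFDN5, EGR2 and NR4A1 are displaced along the start axis, ZMIZ1 and NFKBIA along the end axis, and HIST1H3H and MT-ND3 along both.

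Replication-dependent histone genes had larger response differences, with a lower start and a higher end under the siPFDN5 labels. These genes are transcribed in S phase, and their main mRNAs have no introns and end in a stem-loop in place of a poly(A) tail, so they are captured here because random hexanucleotides primed the reverse transcription. Of 20 listed genes 18 were tested, and 16 were called larger with 0 called smaller. Their median response difference was 0.99, against -0.03 over all genes tested. In all 16 called genes of the list the difference was carried by both levels. The start difference was called lower in 12 of the 18 and the end difference higher in 15. The 2 that were not called were HIST1H2BG (1.86, adjusted p = 0.0557) and HIST2H2AC (0.33, adjusted p = 0.0902). The summed level of the 18 genes was 3385 and 3319 CPM in siControl before serum and 2160 and 2378 CPM in siControl after serum. In siPFDN5 before serum it was 2433 and 2397 CPM, and in the libraries labelled siPFDN5 after serum 3302 and 2897 CPM. The sum was thus lower after serum than before it with siControl and higher after serum than before it under the siPFDN5 labels, without overlap in either pair.

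HIST1H2BJ, which encodes a core histone of the H2B type (chromosome 6, 27125897 to 27132750), had the largest called difference among the named histone genes, and its promoter is shown for elements that are frequent in the listed ones. The sequence is the RefSeq promoter of the gene, listed there as H2BC11, from 250 bases before the start to 50 after it (GRCh38.p14, minus strand, chr6:27132746-27133045). Capitals mark matches to CCAAT and to TATAAA on either strand, some of which overlap or adjoin another.
HIST1H2BJ promoter: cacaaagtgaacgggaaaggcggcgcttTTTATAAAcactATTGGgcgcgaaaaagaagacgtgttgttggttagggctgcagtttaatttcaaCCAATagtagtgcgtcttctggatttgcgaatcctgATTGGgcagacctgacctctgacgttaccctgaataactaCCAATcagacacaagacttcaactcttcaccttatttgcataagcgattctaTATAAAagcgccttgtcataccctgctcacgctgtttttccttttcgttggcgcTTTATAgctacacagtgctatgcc
It held 4 matches to CCAAT and 4 to TATAAA. Of the 21 RefSeq promoters of the listed histone genes, 19 held CCAAT (90.48%) and 16 held TATAAA (76.19%). Over all 35116 RefSeq promoters of the same length these shares were 34.61% and 11.53%. A match is a description of the letters and not a site of binding.

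The values of HIST1H2BJ were 144 and 129 CPM in siControl before serum and 63.6 and 71.5 CPM in siControl after serum. With siPFDN5 they were 86.8 and 84.1 CPM before serum, and 111 and 97.8 CPM in the libraries labelled so after serum. The 4 groups did not overlap, and siControl held both the highest and the lowest. The response difference was 1.31 (SE 0.14, adjusted p = 0.00669), made of a start difference of -0.68 (adjusted p = 0.0119) and an end difference of 0.63 (adjusted p = 0.0034). HIST1H3H, which encodes an H3 histone, stood at 202 and 189.5, then 97.3 and 112 CPM in siControl before and after serum. Under the siPFDN5 labels it stood at 117 and 111, then 152 and 139 CPM. Its start difference of -0.78 and its end difference of 0.47 gave a response difference of 1.25 (adjusted p = 0.00669). The H2A gene HIST1H2AH (1.25) and the H4 genes HIST1H4H and HIST1H4D (both 1.22) were also called with both levels called. Outside the list, HIST1H4B (1.25), HIST1H3A (1.24) and HIST1H2BM (1.19) were assigned to the start, with end shares just under the limit. Their end differences of 0.40, 0.38 and 0.39 were called too. HIST1H2BL (0.93, adjusted p = 0.0415), also outside the list and assigned to the start, had neither its start nor its end difference called. Histone genes have near-identical copies whose reads can be split between them, so single members are uncertain. Without siControl before serum replicate 1, or without either siPFDN5 library before serum, 0 of the 18 listed genes were called, and without labelled siPFDN5 after serum replicate 1 there were 2. Without any 1 of the remaining 4 libraries 14 to 18 were called, and with all 12 libraries 0.

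Cytosolic ribosomal protein genes, which encode the protein parts of the ribosome, also had larger response differences, and there the end carried them. Of 44 tested genes 35 were called larger and 0 smaller, with a median response difference of 0.61. The end carried 34 of the 35. The end difference was called higher in 40 of 44 and the start difference in 0. RPS14 had 409 and 428 CPM in siControl before serum, 343 and 458 CPM in siControl after serum, and 383 and 371 CPM in siPFDN5 before serum. In the libraries labelled siPFDN5 after serum it had 611 and 627 CPM, above all 6 others. Its response difference was 0.78 (SE 0.17, adjusted p = 0.0254) and its end difference 0.63 (adjusted p = 0.00705). Summed over the 44 genes, the level was 18992 to 23814 CPM in the other 6 libraries and 31687 and 32289 CPM in those labelled siPFDN5 after serum. RPLP1 (-1.04, adjusted p = 0.158) and RPS16 (-1.18, adjusted p = 0.187) had negative differences that were not called. The pseudogenes of this family are many, so a single member is uncertain here as well. The count of 35 became 0 without any 1 of 6 libraries, namely both of siControl before serum and all 4 siPFDN5 libraries, and was 38 and 42 without siControl after serum replicates 1 and 2. NOP10, a component of the small nucleolar RNA particles that modify ribosomal RNA, had 84.5 and 86.8 CPM in the pair labelled siPFDN5 after serum against 39.8 to 54.7 CPM in the other 6 (response difference 0.92, adjusted p = 0.0243). RPS19BP1, known as an activator of SIRT1, behaved alike (0.87, adjusted p = 0.0216, end difference 0.60). Among 29 ribosome biogenesis genes 11 were called larger and 0 smaller (median 0.34), and among 16 snoRNA host genes 6 and 0 (median 0.38). Over all genes tested 8.74% were called larger. The snoRNA host genes had a median length of 4948 bp, and of protein-coding genes of 177 to 12794 bp 43.1% were called larger (median 0.43). The ribosome biogenesis genes had a median length of 24022 bp. Of protein-coding genes of 12795 to 27353 bp 24.3% were called larger (median 0.29).

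Genes of TRiC, and some of prefoldin and tubulin, also had larger response differences. Most were higher at the end, in libraries where PFDN5 was not called lower, and a link to the target was not tested. All 8 genes of TRiC, the ring-shaped chaperonin that receives actin and tubulin from prefoldin, were called larger, with response differences from 0.44 to 0.70 and a median of 0.62. The end difference was called higher in 8 of 8 and the start difference in 0. CCT5 stood at 387 and 364, then 316 and 371 CPM in siControl before and after serum. Under the siPFDN5 labels it had 327 and 333 CPM before serum and 499 and 483 CPM after it, the last pair above all others. Its response difference was 0.70 (SE 0.13, adjusted p = 0.0237). CCT8 had the smallest, 0.44 (adjusted p = 0.0456), and exon counts did not call it (0.29, adjusted p = 0.0629). Of the 6 prefoldin genes, PFDN5, VBP1 (0.62, adjusted p = 0.026) and PFDN4 (0.48, adjusted p = 0.0403) were called larger. PFDN5 was carried by the start, but VBP1 and PFDN4 by the end, with end differences of 0.54 and 0.49. Of 13 actin and tubulin genes, the substrates that prefoldin hands to TRiC, 6 were called larger and 0 smaller (median 0.45). Their median length was 7470 bp. Of protein-coding genes in the shortest of 5 length bins (177 to 12794 bp) 43.1% were called larger (median 0.43), so this list was near other short genes. All 6 were tubulin genes, namely TUBB2A, TUBB4B, TUBA1B, TUBA1C, TUBB3 and TUBB6. TUBB2A had 8.36 to 14.7 CPM in the other 6 libraries and 22.8 and 24.7 CPM in those labelled siPFDN5 after serum (response difference 0.63, adjusted p = 0.0304). ACTB, the main cytoplasmic actin, had a response difference of 0.21 that was not called (adjusted p = 0.33). The TRiC count was 8 without either siControl library after serum, 2 without siControl before serum replicate 2, and 0 without any 1 of the other 5 libraries.

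Genes of protein breakdown and of respiration followed the same pattern. Of 25 proteasome genes, whose products form the protease that degrades ubiquitinated proteins, 16 were called larger and 0 smaller (median 0.58), 8 carried by the end and 8 by both levels. PSMB3, a catalytic-ring subunit, had 69.3 to 91.3 CPM in the other 6 libraries and 116 and 112 CPM in those labelled siPFDN5 after serum (0.87, SE 0.13, adjusted p = 0.0175). PSMA7 was called at both times, lower at the start by -0.45 (adjusted p = 0.038) and higher at the end by 0.40 (adjusted p = 0.0186). Of 23 nuclear genes of respiratory complex I 16 were called larger and 0 smaller (median 0.49), 15 of them carried by the end, and the end difference was called higher in 22. NDUFA4 had 44.9 to 51.4 CPM in the other 6 libraries and 72.8 and 78.4 CPM in those labelled siPFDN5 after serum (0.70, adjusted p = 0.0224). Among 20 heat shock and cochaperone genes 7 were called larger and 0 smaller (median 0.37), with the largest difference in the constitutive chaperone HSPA8 (0.99, adjusted p = 0.0237). HSPA8 ran from 1215 to 1801 CPM in the other 6 libraries and stood at 2568 and 2263 CPM in those labelled siPFDN5 after serum. Of 18 genes of the unfolded protein and integrated stress responses 5 were called larger and 1 smaller (median 0.37). They included ATF4, the transcription factor of the integrated stress response (0.74, adjusted p = 0.0224), and XBP1, that of the unfolded protein response (0.70, adjusted p = 0.0254). Over all genes tested 8.74% were called larger. These 18 genes had a median length of 9647 bp. Of protein-coding genes of 177 to 12794 bp 43.1% were called larger (median 0.43), so this list was not above other short genes. The heat shock and cochaperone genes had a median length of 17137 bp. Of protein-coding genes of 12795 to 27353 bp 24.3% were called larger (median 0.29).

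**Figure D3:**
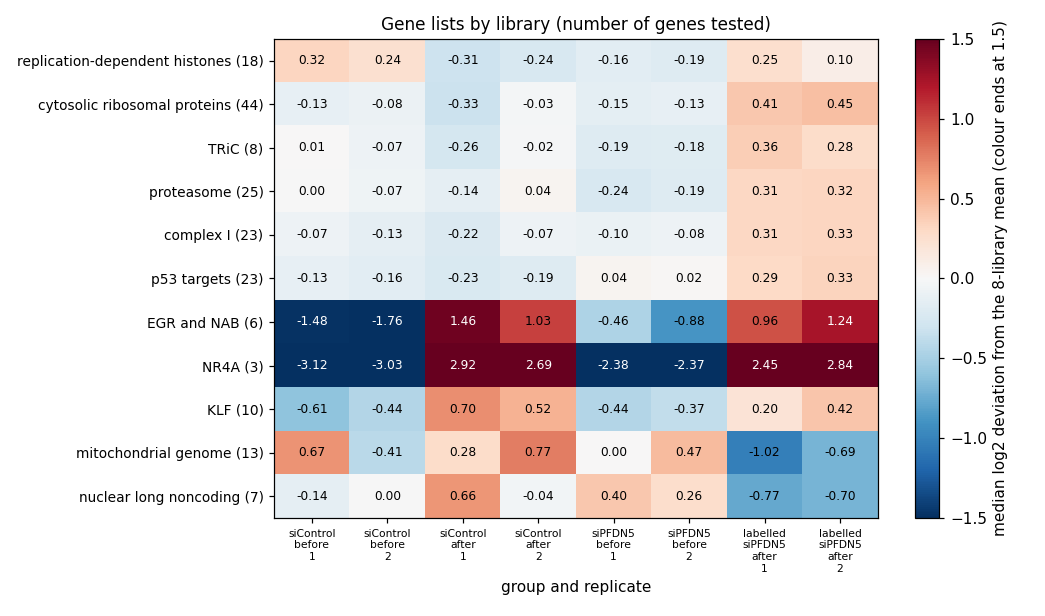
Median over the genes of 11 lists (rows, with the number tested) of each gene's log2 deviation from its mean over the 8 libraries, by library (columns), printed in each cell and coloured between -1.5 and 1.5. Ribosomal protein, TRiC, proteasome, complex I and p53 target genes are highest in the 2 libraries labelled siPFDN5 after serum (0.28 to 0.45), where mitochondrial genome and nuclear long noncoding genes are lowest (-0.69 to -1.02).

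Many targets of p53, the transcription factor that answers DNA damage and other stress, were higher under the siPFDN5 labels at the end, and some at the start too. Of 24 listed genes 23 were tested, with 8 called larger and 1 smaller (median 0.35), beside 8.74% and 6.2% of all genes. The start difference was called higher in 9 and the end difference in 19, with 0 called lower at either time. CDKN1A, which encodes the cyclin-dependent kinase inhibitor p21, had 171 and 162, then 177 and 192 CPM in siControl before and after serum. With siPFDN5 it had 244 and 253 CPM before serum, and 357 and 376 CPM in the libraries labelled so after serum. The 2 siRNAs did not overlap at either time. The start difference was 0.58 (adjusted p = 0.0128), the end difference 0.99 (adjusted p = 0.0013) and the response difference 0.41 (adjusted p = 0.0432). FAS, a death receptor, showed the same order, from 16.9 to 20.2 CPM with siControl to 27.0 and 25.3 CPM in siPFDN5 before serum and 42.4 and 39.8 CPM in the pair labelled siPFDN5 after serum (response difference 0.72, adjusted p = 0.024). MDM2, the ubiquitin ligase that restrains p53, had no called start difference (0.02) and an end difference of 0.53 (adjusted p = 0.00367). AEN, an apoptosis-enhancing nuclease, had a response difference of 0.88 (adjusted p = 0.0157), and PHLDA3, an inhibitor of AKT, 1.01 (adjusted p = 0.0176), both carried by the end. GADD45A, which is also an early-response gene, was the 1 called smaller (-0.66, adjusted p = 0.025) and was carried by the start (0.85). Without siControl after serum replicate 2 the count was 13, without siControl before serum replicate 2 it was 5, without labelled siPFDN5 after serum replicate 2 it was 1, and without any of the 4 libraries siControl before serum replicate 1, labelled siPFDN5 after serum replicate 1 and both siPFDN5 before serum it was 0.

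Of 19 tested NF-kB and cytokine genes 2 were called larger and 0 smaller, a share near the 8.74% of all genes called larger. The end difference was called higher in 7 of the 19 and the start difference in 3, with 0 called lower at either time. Over all genes 12% were called higher at the end and 1.54% at the start. NFKBIA, which encodes the inhibitor that ends NF-kB signalling, had 25.3 and 24.5 CPM in siControl before serum and 58.3 and 60.9 CPM after it. With siPFDN5 it had 21.2 and 20.7 CPM before serum, and 94.2 and 98.5 CPM in the libraries labelled so after serum. The end alone carried the response difference of 0.94 (SE 0.11, adjusted p = 0.00793), since the start difference of -0.25 was not called (adjusted p = 0.0971). NFKBIE, a second inhibitor of this family, was the other call (1.02, adjusted p = 0.0157), and the median of the list was -0.03. CXCL8, a neutrophil chemokine, had 0.742 and 0.702, then 46.1 and 38.6 CPM with siControl and 1.91 and 1.87, then 109 and 108 CPM under the siPFDN5 labels. Its start difference of 1.39 (adjusted p = 0.00303) and its end difference of 1.36 (adjusted p = 0.000491) were alike, and the response difference was -0.03 (SE 0.16, adjusted p = 0.984). SERTAD1, a coactivator of E2F, was not in this list and was carried by the end too. It had 24.4 and 30.0 CPM in siControl after serum and 50.4 and 49.7 CPM in the pair labelled siPFDN5 after serum, against 15.7 to 17.4 CPM before serum under both siRNAs (response difference 0.89, adjusted p = 0.0221).

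Some immediate-early transcription factors had smaller response differences. They were called in 2 of 6 EGR and NAB genes, 2 of 3 NR4A genes and 2 of 9 AP-1 and ATF3 genes. Over all genes tested 6.2% were called smaller. The start carried the called differences of the EGR and NR4A genes. EGR2 is a zinc finger factor of the early growth response family, and its RefSeq promoter is shown because it holds a CArG box, the element bound by serum response factor. It is 1 of 3 promoters of the gene there and was chosen for that box (GRCh38.p14, minus strand, chr10:62816317-62816616). Capitals mark the box, whose first base lies at -71 from the start.
EGR2 promoter: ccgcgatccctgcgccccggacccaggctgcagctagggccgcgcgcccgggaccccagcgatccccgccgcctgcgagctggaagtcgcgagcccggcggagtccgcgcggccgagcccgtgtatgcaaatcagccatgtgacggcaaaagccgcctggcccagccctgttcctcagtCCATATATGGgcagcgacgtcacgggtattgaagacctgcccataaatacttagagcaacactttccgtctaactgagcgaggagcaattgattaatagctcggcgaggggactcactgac
Of 22 promoters of the EGR, NAB, NR4A and AP-1 genes with a RefSeq entry, 2 held a CArG box (9.091%), against 454 of all 35116 (1.293%), with both strands searched. Of the 21 promoters of the listed histone genes, which had larger differences, 2 held it as well (9.524%).

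EGR2 had 0.85 and 0.833 CPM in siControl before serum and 48.3 and 36.0 CPM in siControl after serum. With siPFDN5 it had 2.31 and 2.30 CPM before serum, and 25.05 and 32.9 CPM in the libraries labelled so after serum. The starved siPFDN5 libraries were above the starved siControl ones, and after serum the order was the opposite, with no overlap at either time. The response difference was -1.99 (SE 0.26, adjusted p = 0.0175), of which the start difference gave 1.45 (adjusted p = 0.0165) and the end difference -0.54 (adjusted p = 0.0402). EGR3, of the same family, had 1.24 and 0.954, then 92.9 and 78.9 CPM with siControl and 2.42 and 2.99, then 77.6 and 92.1 CPM under the siPFDN5 labels. Its groups overlapped after serum, and its response difference of -1.33 (adjusted p = 0.0224) was carried by the start (1.31), with an end difference of -0.02. Of the 6 EGR and NAB genes these 2 were called, and the list median was below that of all genes tested (-1.002).

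The NR4A genes encode orphan nuclear receptors that act as early regulators of transcription. NR4A3 had 0.85 and 0.992 CPM in siControl before serum, 1.83 and 1.88 CPM in siPFDN5 before serum, 292 and 279 CPM in siControl after serum, and 297 and 314 CPM in the pair labelled siPFDN5 after serum. Its response difference of -0.91 (adjusted p = 0.0216) was carried by a start difference of 1.01 (adjusted p = 0.00503). NR4A1 had 7.71 and 8.20, then 511 and 436 CPM with siControl, and 12.9 and 12.96, then 368 and 483 CPM under the siPFDN5 labels. Its start difference was 0.70 (adjusted p = 0.0294) and its response difference -0.86 (adjusted p = 0.0254). In both genes the siRNAs were apart before serum, and NR4A1 overlapped after it. NR4A2 was lower at the end (-0.35, adjusted p = 0.0364), and its response difference of -0.41 was not called (adjusted p = 0.0766), although exon counts called it (-0.58, adjusted p = 0.0207).

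Among 9 AP-1 and ATF3 genes, whose products form the dimeric AP-1 factors, 2 were called smaller and 0 larger (median -0.41). FOSL1 was carried by the start (response difference -0.49, adjusted p = 0.0471, start difference 0.47). FOSB was carried by both levels (response difference -1.71, adjusted p = 0.036). FOS had the largest negative value of the list, -1.77, and was not called (SE 0.49, adjusted p = 0.0678), with 68.3 and 35.5 CPM in siControl after serum. JUN had a response difference of 0.04 (SE 0.16, adjusted p = 0.889). Without siControl before serum replicate 1 or without either siPFDN5 library before serum, 0 of the EGR, NAB and NR4A genes were called.

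EGR1 was the 1 gene of 4299 (0.0233%) where intronic and exonic counts differed in their response difference, by 3.44 (SE 0.36, adjusted p = 0.00182). At an unadjusted p under 0.05 there were 1192 such genes. Its exonic count was 2366 and 1695 in siControl before serum and 11524 and 11172 after it, 2884 and 3848 in siPFDN5 before serum, and 3500 and 6579 in the libraries labelled siPFDN5 after serum. Its intronic count was 89 and 70, then 52 and 46 with siControl, and 53 and 64, then 41 and 50 under the siPFDN5 labels. In gene-body counts the response difference of EGR1 was -2.09 (SE 0.57) and was not called (adjusted p = 0.0732). Intronic counts alone gave 0 called genes of 4782 (0%) by edgeR, with 1358 at an unadjusted p under 0.05.

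Other early regulators had smaller or uncalled differences, with exceptions. Of 10 KLF genes, zinc finger factors of which several answer serum, 5 were called smaller and 0 larger (median -0.38), beside 6.2% of all genes called smaller. KLF4 had 33.5 and 35.8 CPM in siControl after serum and 26.1 and 26.7 CPM in the pair labelled siPFDN5 after serum, from 5.63 and 6.31 and from 8.16 and 9.18 CPM before it. It was called at both times, higher at the start by 0.54 and lower at the end by -0.39, with a response difference of -0.93 (adjusted p = 0.0175). Of 14 clock genes 4 were called smaller and 0 larger (median -0.42). PER1, a repressor of the clock, differed by -1.18 (adjusted p = 0.0183) through both levels, and NR1D1, the receptor REV-ERB alpha, by -1.02 (adjusted p = 0.0301) through the end. Of 14 YAP and TEAD targets 4 were called smaller (median -0.45), among them CYR61, a secreted matrix protein (-0.62, adjusted p = 0.0363), and the Hippo kinase gene LATS2 (-0.60, adjusted p = 0.0269), both carried by the start. Beside the 6.2% of all genes called smaller, ERK feedback genes had 3 of 14 (median -0.26) and cytoskeletal targets of serum response factor 3 of 21 (median 0.06), with 0 called larger in either list. With the GC trend removed these became 1 smaller and 0 larger, and 4 smaller and 3 larger. In that setting 3 KLF genes were called smaller, and the clock and the YAP and TEAD lists kept 4 each. The 3 cytoskeletal calls included MYH9, the heavy chain of nonmuscle myosin (-0.72, adjusted p = 0.0289), through the end.

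The 21 further early genes went both ways, with 4 called larger, 3 smaller and a median of 0.02. BHLHE40, a transcriptional repressor, was called smaller and carried by the start (-1.25, adjusted p = 0.0421), and the kinase gene PIM1 was called smaller and carried by the end (-0.87, adjusted p = 0.0237). PIM1 had 13.94 and 13.997 CPM in siControl after serum and 6.56 to 8.05 CPM in the other 6 libraries. The stress-response gene IER3 had 311 and 313 CPM in siControl after serum and 437 and 433 CPM in the pair labelled siPFDN5 after serum (0.53, adjusted p = 0.0248). The kinase genes PLK2 (0.48, adjusted p = 0.0296) and PIM3 (0.44, adjusted p = 0.0331) were also called larger. IRS2, the insulin receptor substrate and a target of FOXO factors, had a response difference of -1.53 (adjusted p = 0.0175), higher at the start by 0.78 and lower at the end by -0.75. ARRDC3, an arrestin-like protein, had 58.0 and 59.8 CPM in siControl after serum and 28.0 to 36.9 CPM in the other 6 libraries (-0.84, adjusted p = 0.0164).

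A list of serum-induced genes chosen on the fold changes of the siPFDN2 libraries had more smaller than larger calls. It holds 450 genes called in the serum response of these 4 libraries with a log2 change of at least 1 (the spread being estimated over all 12), of which 445 were tested. Of these 54 were called smaller and 18 larger, and their median response difference was -0.20, against -0.03 for all genes tested. The shares of all genes were 6.2% smaller and 8.74% larger. Exon counts gave 49 smaller and 36 larger of 387 genes, where 9.48% of all genes were called larger, and removal of the GC trend gave 54 and 32 in gene-body counts. The start difference was called higher in 34 and lower in 4 of the 445. Of the 206 tested genes of the corresponding serum-repressed list, 13 were called smaller and 6 larger (median -0.06).

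The named genes with a smaller difference carried by the end included ZMIZ1, SKI, AHDC1 and MAP1A. ZMIZ1, a coactivator of the androgen receptor and p53, had 34.2 to 48.1 CPM in the other 6 libraries and 15.998 and 20.3 CPM in those labelled siPFDN5 after serum. Its response difference was -1.39 (SE 0.22, adjusted p = 0.0224) and its end difference -1.21 (adjusted p = 0.00309). SKI, a corepressor of SMAD factors, differed by -1.28 (adjusted p = 0.0339), AHDC1 by -1.28 (adjusted p = 0.025) and MAP1A, a microtubule-associated protein, by -1.22 (adjusted p = 0.0326). SKI shows the part of the 2 control libraries after serum, with 70.7 and 49.1 CPM there, 26.2 and 35.7 CPM in the pair labelled siPFDN5 after serum and 34.6 to 44.7 CPM before serum. POLR2A, the largest subunit of RNA polymerase II, was carried by the end too (-1.10, adjusted p = 0.0279, end difference -0.98). So was FASN, fatty acid synthase (-0.96, adjusted p = 0.0221, end difference -1.08). The medians of their lists were not negative. Of 27 Pol II and elongation genes 3 were called larger and 3 smaller (median 0.01), with 14 positive and 13 negative values. Of 23 cholesterol and fatty acid synthesis genes 0 were called larger and 3 smaller (median 0.24), with 15 positive and 8 negative values. FASN stood at 488 to 602 CPM in the other 6 libraries and at 245 and 309 CPM in those labelled siPFDN5 after serum.

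Smaller differences carried by the start were named in ZC3H13, NR4A3, HNRNPA1P48, TMEM182 and SYNJ1. ZC3H13, part of the complex that writes N6-methyladenosine on mRNA, had 34.98 and 41.01 CPM in siControl before serum and 68.6 and 72.3 CPM in siPFDN5 before serum (start difference 0.89, adjusted p = 0.0478). After serum its groups overlapped, and the response difference was -1.10 (adjusted p = 0.0359). SYNJ1, a phosphoinositide phosphatase, differed by -0.77 (adjusted p = 0.0319) and TMEM182 by -0.80 (adjusted p = 0.0296), which exon counts did not call (-0.17, adjusted p = 0.513). HNRNPA1P48, annotated as protein-coding but named as a pseudogene of HNRNPA1, shares reads with it, so its value of -0.82 (adjusted p = 0.0244) is uncertain. In the opposite direction MSRB1, a methionine sulfoxide reductase, was carried by the start with a larger difference. It had 13.7 and 12.7, then 9.29 and 10.3 CPM with siControl and 7.92 and 8.73, then 12.4 and 12.01 CPM under the siPFDN5 labels (response difference 0.99, adjusted p = 0.0175, start difference -0.67).

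Among genes with a smaller difference carried by both levels, MT-ND3 had the lowest adjusted p of the named genes. It encodes a complex I subunit in the mitochondrial genome (positions 10059 to 10404). It had 24.5 and 24.5 CPM in siControl before serum and 59.4 and 55.0 CPM after it. With siPFDN5 it had 52.1 and 60.0 CPM before serum, and 30.0 and 27.7 CPM in the libraries labelled so after serum. Both siRNAs thus had a low time and a high time, in the opposite order, without overlap between low and high. The response difference was -2.18 (SE 0.13, adjusted p = 0.000113). The other 12 protein-coding genes of the mitochondrial genome all had negative response differences too, and none of them was called by edgeR (median of the 13 genes -1.51). Over the 13 genes the median start difference was 0.13, called higher in 1, and the median end difference was -1.37. The raised start of MT-ND3 was thus not typical of them. DESeq2 called 5 of the 13 smaller. Their replicates varied more. The summed level of the 13 genes was 3272 and 1532 CPM in siControl before serum, 2286 and 3301 CPM in siControl after serum, 2035 and 2499 CPM in siPFDN5 before serum, and 922 and 1190 CPM in the pair labelled siPFDN5 after serum. The last 2 were below all others. ZNF469 (-1.29, adjusted p = 0.0176), RPE65 (-1.29, adjusted p = 0.0313), PRRC2C (-1.24, adjusted p = 0.0304) and BCORL1, a corepressor of BCL6 (-1.13, adjusted p = 0.0276), were the further named genes of this class.

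Long noncoding RNAs that stay in the nucleus had low values in the same 2 libraries. Of 8 listed, 7 were tested, with 1 called smaller by edgeR (4 by DESeq2), 0 larger and a median response difference of -1.44. The call was MALAT1, a nuclear speckle RNA (-1.44, SE 0.35, adjusted p = 0.0461). It had 601 to 1045 CPM in the other 6 libraries and 329.6 and 382 CPM in those labelled siPFDN5 after serum. NEAT1, the scaffold of paraspeckles, had 45.5 to 109 CPM in the other 6 and 27.6 and 32.3 CPM in those 2, and its response difference of -2.08 was not called (adjusted p = 0.0708).

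Among DNA replication genes the start was lower in some, and among mitosis genes it was not called. Of 24 DNA replication genes 8 were called larger and 1 smaller (median 0.37), beside 8.74% and 6.2% of all genes. Their start difference was called lower in 9 and higher in 0. MCM7, a subunit of the replicative helicase, had 294 and 261 CPM in siControl before serum and 212 and 214 CPM in siPFDN5 before serum, but 272 and 306 against 315 and 324 CPM after serum (response difference 0.53, adjusted p = 0.0304). CDC25A, the phosphatase that opens S phase, differed by 0.59 (adjusted p = 0.0248) through a start difference of -0.46 (adjusted p = 0.0281). PCNA, the sliding clamp, differed by 0.58 (adjusted p = 0.0263) through the end. Of 22 mitosis genes 11 were called larger and 1 smaller (median 0.44), 8 of the 12 by the end, and the start difference was called in 0. The 1 called smaller was MKI67, which encodes the proliferation marker Ki-67 (-1.07, adjusted p = 0.0447).

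Gene length moved with the response difference. In 10463 protein-coding genes with a mean of at least 3 on the log2 CPM scale, the median response difference was 0.43 in the shortest of 5 equal bins (177 to 12794 bp), 0.29, 0.15 and -0.01 in the next 3, and -0.37 in the longest (103599 to 2298478 bp). The share called larger was 43.1% in the shortest bin and 1.34% in the longest, and the share called smaller 1.10% and 16.4%. Over these genes Spearman's rank correlation with length was -0.63 for the response difference, 0.43 for the start difference and -0.52 for the end difference. These are descriptions across genes that share their libraries. Called genes with a larger difference had a median length of 10267 bp and those with a smaller one 53794 bp, against 17493 bp for all genes tested. The median length was 996 bp for the listed histone genes, 5372 bp for the ribosomal protein genes and 6114 bp for the EGR and NAB genes. The EGR and NAB genes had a median response difference of -1.002, with 4 negative and 2 positive values and 2 called smaller.

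The same trend was present in exon counts in a weaker form and in intronic counts in a stronger one. From the shortest to the longest bin the median went from 0.28 to -0.10 in exon counts and from 0.65 to -1.01 in intronic counts. The 2 siControl libraries after serum differed in it, with a median deviation from the mean of the 8 libraries of -0.18 in the shortest and 0.18 in the longest bin in replicate 1, and 0.02 and -0.07 in replicate 2. The share of gene-body counts outside exons also moved with the groups. It was 14.99% and 17.3% in siControl before serum, 20.6% and 16.2% in siControl after serum, 22.8% and 25.9% in siPFDN5 before serum, and 17.2% and 14.8% in the libraries labelled siPFDN5 after serum. The part of gene length and of the intronic share in the differences of single genes was not tested.

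**Figure D4:**
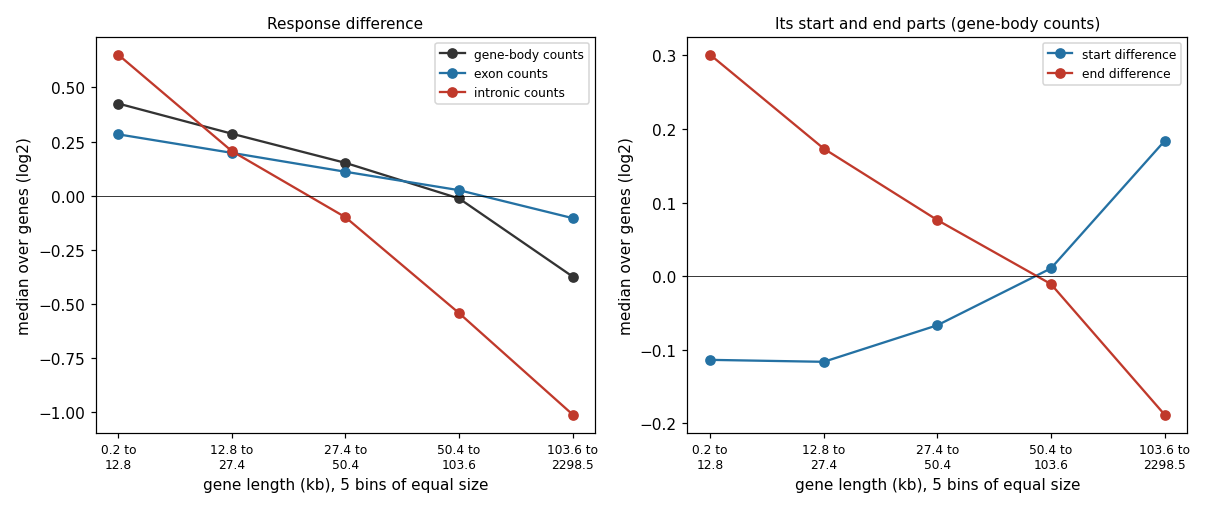
Median log2 difference (vertical axes) in 5 bins of protein-coding genes by gene length in kb (horizontal axes), for the response difference in gene-body, exon and intronic counts (left) and for its start and end differences in gene-body counts (right). The response difference falls from 0.43 to -0.37 in gene-body counts, from 0.28 to -0.10 in exon counts and from 0.65 to -1.01 in intronic counts between the shortest and the longest bin.

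Exon counts gave a similar number of calls. The response difference was called for 3776 of 24256 genes (15.6%), with 2299 larger (9.48%) and 1477 smaller (6.09%), and 8007 had an unadjusted p under 0.05. Upper-quartile scaling gave 1505 larger and 1750 smaller exon calls, and library size alone 1009 and 1531. In both kinds of count 2741 genes were called, which is 67.9% of the gene-body calls and 72.6% of the exon calls, and 2739 of them had the same sign. Of the 3790 gene-body calls that were tested in exons, 69 had the opposite sign there. In exon counts 16 of 18 histone genes, 33 of 44 ribosomal protein genes and 7 of 8 TRiC genes were called larger. Of the 4036 gene-body calls 2999 lie in genes that overlap another gene, and their counts can include fragments of the partner.

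Markers of the cell types that the cultures could hold were checked in the 8 libraries. EPCAM, an epithelial adhesion protein, was present in all 8, as were the epithelial keratins, of which KRT8 and KRT18 were called larger. Of the 6 tested epithelial genes 2 were called, and 5 had a positive and 1 a negative response difference. CEACAM5 was not tested. The 2 tested fibroblast markers, the 2 leukocyte markers and the 3 endothelial markers had 0 calls, beside 14.9% of all genes. Their summed levels ran from 4.10 to 13.6 CPM, from 2.89 to 4.46 CPM and from 1.31 to 2.38 CPM. The lack of calls does not show that such cells were absent. In bulk RNA fewer cells of a type and less RNA per cell cannot be told apart, and the fraction of cells that took up an siRNA was not measured here.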

How the data were processed

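RNA of HCT116 cells was sequenced in 12 libraries, of which 8 are compared. Per the labels, total RNA was column-purified, treated with DNase, depleted of 18S rRNA and reverse-transcribed with random hexanucleotides. Fragment counts for each gene were deposited by the authors in separate tables for whole gene bodies and for exons. Per the file headers, both were made with featureCounts 1.5.2 on Ensembl release 87 of GRCh38, with paired ends both mapped, fragments counted for each gene they overlap and no strand setting. Such counts cannot separate overlapping genes, and gene-body counts mix spliced and unspliced RNA. HISAT2 0.12.2, kallisto 0.43 and GRCh38.p7 are given by the submitters' processing notes. The deposited files per sample hold estimated counts per transcript, although their names say TPM. These were summed per gene, rounded to whole numbers and used as an alternative only. A further 6 columns of each of these count tables match no labelled sample and were not used.

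Gene-body counts were fitted with edgeR 4.0.16 in R 4.3.3 (filterByExpr, TMM scaling, glmQLFit with robust estimation, glmQLFTest) on 4 group means over the 8 libraries, with p-values adjusted by Benjamini-Hochberg over all genes tested. All tests were two-sided, and SE values were derived from the log2 difference and the test statistic. A prior count of 2 was used on the log2 scale. Exon counts were fitted alike. Intronic counts are gene-body minus exon counts in genes that overlap no other gene, and their difference from exonic counts was tested with the library as a block. Gene names and types come from GENCODE release 29, where 57447 of 58051 genes were found. Lengths and overlaps come from the annotation used for counting, Ensembl release 87. Library totals over gene bodies ran from 59784425 to 136504590, and each group had 2 replicates.

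The named genes are PFDN5, PFDN2, members of the gene lists, and up to 5 genes per class and direction with the largest response difference. These had to be called, with a mean log2 CPM of at least 3, the same sign in exon counts, protein-coding and overlapping no other gene. A few results of this kind are not reported here. The comparison, lists and tests were chosen with earlier results of these data known, and no list is independent support. Alternatives were other scalings (upper quartile, library size only), filters, DESeq2 1.42.0, all 12 libraries, removal of a GC trend, a replicate block, each library left out and stricter class limits. The code was tested on simulated data. Replicate numbers were not treated as pairs.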

Additional observations from a re-analysis of the deposited data

Results flagged for a closer look

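In 25 of the named and listed genes the siPFDN5 libraries differed from siControl in opposite directions before and after serum, with both differences and the response difference called by edgeR. For 17 histone genes the level was lower before serum and higher after it in the libraries labelled siPFDN5. Their response differences were 1.31 for HIST1H2BJ, 1.25 for HIST1H3H, 1.25 for HIST1H2AH, 1.25 for HIST1H4B, 1.24 for HIST1H3A, 1.22 for HIST1H4H, 1.22 for HIST1H4D and 1.19 for HIST1H2BM. They were 1.15 for HIST1H4C, 1.04 for HIST1H3B, 1.04 for HIST1H3D, 1.00 for HIST2H3D, 0.99 for HIST1H2BK, 0.95 for HIST1H2AC, 0.91 for HIST2H2BE, 0.88 for HIST1H1C and 0.88 for HIST1H4E. The proteasome genes PSMA7 (0.85) and PSMB4 (0.85) and the stress regulator ATF4 (0.74) turned the same way. MT-ND3 (-2.18), EGR2 (-1.99), IRS2 (-1.53), PER1 (-1.18) and KLF4 (-0.93) were higher before serum and lower after it. The turn of direction at the end rests on 2 libraries whose PFDN5 level does not bear out their label, and its cause was not tested. With 2 libraries per group no single library could be assessed as an outlier.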

How the results depend on the processing

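The counts of called genes depended on single libraries and on which groups shared the estimate of the spread. Leaving out 1 library at a time gave 1 to 12107 calls of the response difference in gene-body counts, 164 to 7616 in exon counts, 1 to 6260 for the start difference, 760 to 11775 for the end difference, 0 to 1634 in intronic counts and 1 to 1425 for intronic against exonic counts. Where this left 1 library in a group, it was assumed to vary like the other groups. With all 12 libraries the counts were 0 (5847 at an unadjusted p under 0.05), 0 (3231), 2, 1 and 28 for the first 5 of these. Scaling by library size alone left 187 calls in gene-body counts and moved the median response difference of all genes from -0.03 to -0.10. Without a filter on low counts 7370, 5918 and 3603 were called in gene-body counts, exon counts and for the start difference, and 47.3% of the first were larger, against 58.5%. DESeq2 called 1897 genes for the start difference and 5374 for the response difference. Stricter limits of 0.75 and 0.25 put 288 called genes in the start class.

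Same-numbered libraries did not deviate together in all pairs of groups (correlations of their deviations from -0.30 to 0.41), so the replicate numbers were not taken as pairs. With a replicate block 3319 genes were called for the response difference and 526 for the start difference, and with the block and the GC trend removed 4406 and 487. Differences that were near 0 changed sign. The end difference of NR4A3 was -0.054 by library size, and the start difference of SERTAD1 was 0.016 with the GC trend removed and 0.019 with the block as well. With 1 library left out, the start difference of SERTAD1 ran from -0.094 to 0.054, and the end differences from -0.12 to 0.041 for PFDN5, from -0.41 to 0.093 for ZC3H13, from -0.23 to 0.052 for TMEM182 and from -0.22 to 0.11 for SYNJ1. The cause was not tested.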
